A study of Arabidopsis thaliana with 16 samples.

Results

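HD2 proteins are histone deacetylases found in plants. Arabidopsis thaliana has 4 HD2 genes, HD2A (AT3G44750, also called HDT1 or HDA3), HD2B (AT5G22650), HD2C (AT5G03740) and HD2D (AT2G27840, also called HDT4). They were taken by locus identifier from a table of 32548 genes. All 4 were present and passed the filter on low values, under which 20846 genes reached 10 in 2 or more libraries. HD2A and HD2B transcripts were called lower than in wild type (adjusted p under 0.05) in all 7 mutants studied. That held for 1.94% of all tested genes. HD2D was called lower in 3 of them (hda6, esant12 and arid14), where 12.5% to 17.2% of all tested genes were lower. HD2C was called higher in rxt3, where 22.3% of all tested genes were higher. The HD2A calls in 4 mutants, the HD2B call in esant12 and the 3 HD2D calls depended on single libraries.

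Histone deacetylases remove acetyl groups from lysines of histone tails and are associated with closed chromatin and low transcription. The HD2 type is unrelated in sequence to the RPD3/HDA1 type, found across eukaryotes, and to the sirtuins. HD2 proteins accumulate in the nucleolus, where ribosomal RNA is made, and HD2A is known from the silencing of ribosomal RNA genes. HD2A and HD2B act with the leaf polarity factors AS1 and AS2, HD2C binds HDA6 and takes part in responses to abscisic acid, cold and heat, and HD2D is known from root development and stress tolerance.

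RNA was sequenced from whole seedlings 14 days old that had grown on plates at 23 °C in the light (16 h) and 22 °C in darkness (8 h). The 7 mutants were hda6(-/-) and hda19(-/-), each in a gene of an RPD3-type deacetylase; a quadruple mutant of sant1(-/-), sant2(-/-), sant3(-/-) and sant4(-/-), here sant1234; a triple mutant of mbd1(-/-), mbd2(-/-) and mbd4(-/-), here mbd124; the double mutants of esant1(-/-) and esant2(-/-), here esant12, and of arid1(-/-) and arid4(-/-), here arid14; and rxt3(-/-). They were set against wild-type Col-0. The 8 genotypes had 2 libraries each, which makes 16. The study examined complexes that RPD3-type deacetylases form. Whether both libraries of a genotype were from separate plants is not stated, so p-values measure only the spread between these samples.

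Depth was close to even, with 19259579 to 19522197 reads recovered per library. HDA19 stood at 0.994 and 4.87 in hda19, against 2088 and 2222 in wild type. Among the other genes that name a mutant, MBD1 stood at 0.469% of wild type in mbd124, MBD4 at 6.23% and MBD2 at 37.6%. AT2G46040 and AT5G08450 carry only a locus identifier as symbol in the reference. Taken as ARID1, AT2G46040 stood at 49.7% in arid14. Taken as the RXT3-like gene HDC1, AT5G08450 stood at 29.6% in rxt3. The HDA6 transcript did not pass the test in hda6 (113% of the wild-type mean, limma adjusted p = 0.14) and does not check that label. The ARID4, SANT and ESANT loci were not read here.

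The 4 genes lie on the forward strand of 3 chromosomes of TAIR10.1. HD2A spans positions 16297656 to 16299876 of chromosome 3, HD2B 7533946 to 7536496 and HD2C 981859 to 984289 of chromosome 5, and HD2D 11861806 to 11863908 of chromosome 2. The annotated protein has 245 residues for HD2A, 306 for HD2B, 294 for HD2C and 203 for HD2D. HD2A and HD2B are the closest pair, with 61.9% identical residues over their alignment, and HD2C and HD2D the most distant, with 39.5%. The first 45 coding bases are given here, from RefSeq for TAIR10.1, because the start of the protein is its conserved end and the counts of each gene depend on how alike the copies are. Capitals mark the 21 positions at which all 4 genes have the same base.
HD2A: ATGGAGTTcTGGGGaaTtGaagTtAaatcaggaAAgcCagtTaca
HD2B: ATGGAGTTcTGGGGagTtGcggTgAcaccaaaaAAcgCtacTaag
HD2C: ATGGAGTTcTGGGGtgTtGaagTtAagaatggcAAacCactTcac
HD2D: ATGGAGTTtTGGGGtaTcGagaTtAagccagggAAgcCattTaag
The alike bases are scattered after a run of 8 at the start. No stretch of 50 bases, the read length, in the exons of HD2A (1039 stretches), HD2B (1096), HD2C (956) or HD2D (1025) was found elsewhere in the genome. A read without errors that lies inside an exon of one HD2 gene therefore has no second match.

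Per kilobase of exon, HD2B was the most abundant of the 4 transcripts in every genotype and HD2D the least. On this scale HD2B reached 1528 ± 152 in rxt3 and 2038 ± 41.2 in wild type, and HD2D 285 ± 48.7 in rxt3 and 333 ± 32.8 in wild type (deposited value per kb, SD, n = 2). HD2A and HD2C were close to each other in wild type, at 650 ± 51 and 594 ± 62.3 per kb. HD2B made up 51.5% to 56.9% of the summed HD2 level in the 8 genotypes. That sum was 2714 ± 20.1 per kb in hda6, 3073 ± 67 in hda19, 2939 ± 32.8 in sant1234, 2895 ± 158 in mbd124, 2970 ± 126 in esant12, 2769 ± 54.7 in arid14 and 2966 ± 254 in rxt3, against 3614 ± 187 in wild type. The mean sum was thus lower in each mutant than in wild type, with hda6 lowest.

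**Figure D1:**
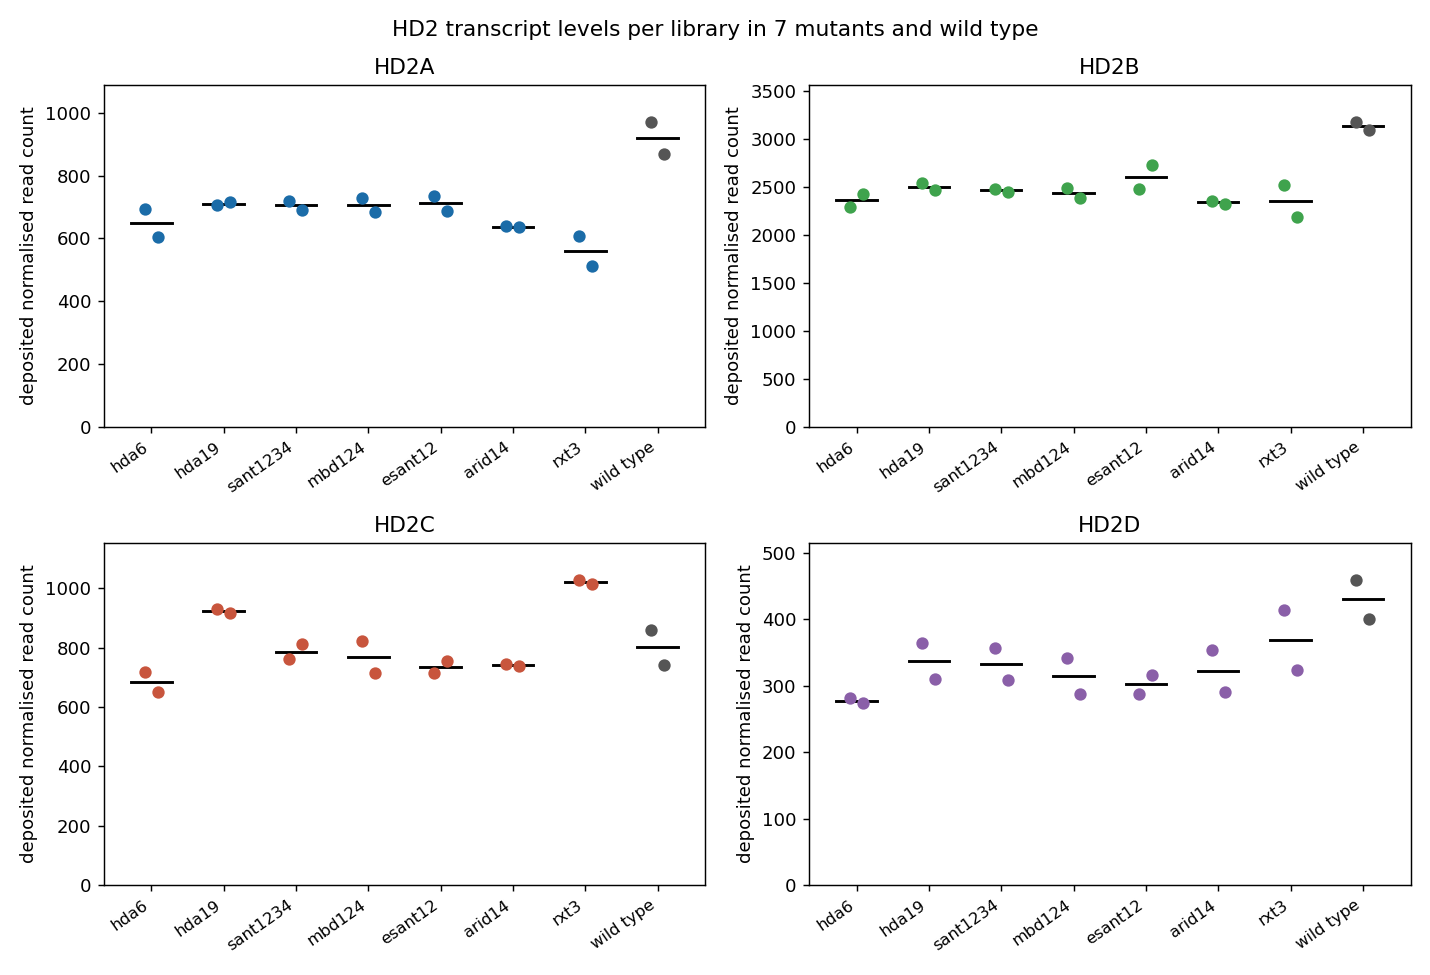
Deposited normalised read count of each HD2 gene (y axis, from 0, a separate scale per panel) in 7 mutants and wild type, with 1 point per library and a line at the mean of 2. All 14 mutant libraries lie below both wild-type libraries for HD2A and HD2B, 13 of 14 do for HD2D, and HD2C is highest in rxt3. The share of all tested genes with such a separation was not counted.

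HD2A, the member known from ribosomal RNA gene silencing, fell in all 7 mutants, to between 60.7% (rxt3) and 77.3% (esant12) of the wild-type mean. Its deposited values were 694 and 605 in hda6, 705 and 716 in hda19, 720 and 691 in sant1234 and 730 and 684 in mbd124, against 972 and 870 in wild type. They were 735 and 688 in esant12, 639 and 635 in arid14 and 607 and 512 in rxt3. All 14 mutant libraries lay below both wild-type libraries, and the rxt3 libraries included the lowest of the 16. For this and the other members, the share of all tested genes with such a separation was not counted. The log2 fold change, mutant minus wild type, was -0.50 in hda6, -0.37 in hda19, -0.38 in sant1234 and mbd124, -0.37 in esant12, -0.53 in arid14 and -0.72 in rxt3, each with a standard error of 0.09. The limma adjusted p ran from 1.5e-05 in rxt3 to 0.013 in mbd124. In a bulk sample, fewer cells of a type and less RNA per cell cannot be told apart.

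HD2A in 4 mutants depended on single libraries. Without wild-type replicate 1, the higher of that pair, limma adjusted p was 0.062 in hda19, 0.075 in sant1234, 0.13 in mbd124 and 0.072 in esant12. It also missed the threshold without sant1234 replicate 2 (0.059), mbd124 replicate 2 (0.11) or esant12 replicate 2 (0.056), or, in mbd124, when only mbd124 and wild type were fitted (0.086), whereas the calls in hda6, arid14 and rxt3 held in all 12 alternatives. HD2A overlaps AT3G44740 on the opposite strand by 315 bp. The strand setting of the counting is not stated, so reads of that stretch could belong to either gene. AT3G44740 averaged 97.7 ± 20.8 in wild type, and its limma adjusted p was 0.32 or more in every mutant.

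HD2B, a substrate of the immune kinase MPK3 and the most abundant member, also fell in all 7 mutants, to between 74.6% (arid14) and 82.9% (esant12) of wild type. Its deposited values were 2289 and 2428 in hda6, 2538 and 2462 in hda19, 2480 and 2439 in sant1234 and 2483 and 2379 in mbd124, against 3177 and 3087 in wild type. They were 2473 and 2722 in esant12, 2353 and 2321 in arid14 and 2514 and 2184 in rxt3. No mutant library reached either wild-type library, and the 14 mutant libraries ran from 2184 to 2722. The log2 fold change ran from -0.27 in esant12 (limma adjusted p = 0.0068) to -0.42 in arid14 (0.00019) and rxt3 (0.00012), with a standard error of 0.06. In between lay hda19 at -0.32, sant1234 at -0.35, mbd124 at -0.37 and hda6 at -0.41.

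The HD2B call in esant12 was lost without esant12 replicate 1 (limma adjusted p = 0.088) or without wild-type replicate 1 (0.051), and that in mbd124 when only mbd124 and wild type were fitted (0.055). HD2B overlaps AT5G22660 on the opposite strand by 261 bp. That gene averaged at most 10.5 in the mutants and 3.98 ± 2.81 in wild type, a small amount beside HD2B, and was itself called higher in sant1234 and rxt3 (limma adjusted p = 0.042 and 0.027), calls lost without either sant1234 library, rxt3 replicate 1 or wild-type replicate 2.

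The number of members called lower is given beside the share of all tested genes called lower. In hda6 it was 3 of 4, with 12.5% of all tested genes lower, in hda19 2 of 4 with 16.2%, in sant1234 2 of 4 with 11.3%, and in mbd124 2 of 4 with 5.27%. In esant12 it was 3 of 4 with 14.3%, in arid14 3 of 4 with 17.2%, and in rxt3 2 of 4 with 24.9%. HD2A and HD2B were among 404 genes, 1.94% of those tested, that were lower in all 7 mutants. The share of all tested genes called higher was 11.2% in hda6, 14% in hda19, 8.53% in sant1234, 4.73% in mbd124, 11.5% in esant12, 15.1% in arid14 and 22.3% in rxt3, where HD2C was the 1 member called higher. The 7 comparisons share the wild-type libraries, so they are not independent of each other.

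**Figure D2:**
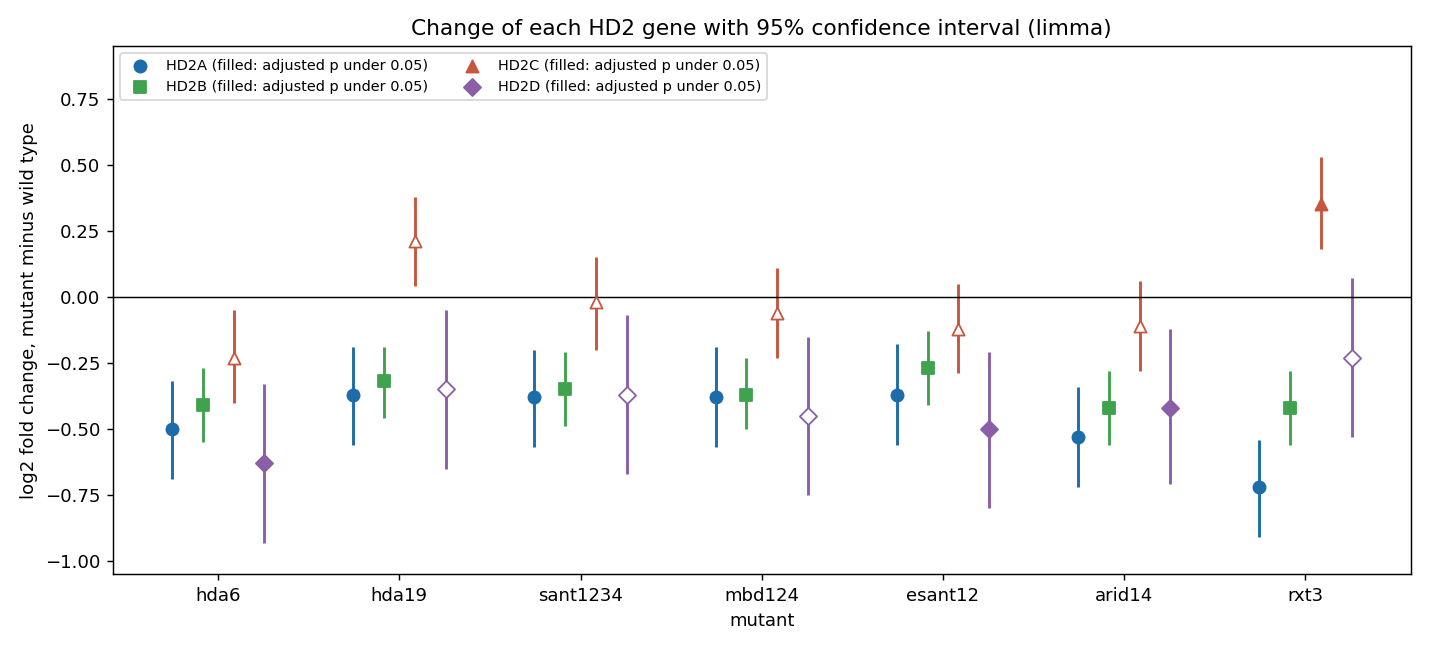
Log2 fold change of each HD2 gene, mutant minus wild type (y axis), in each mutant (x axis) with its 95% confidence interval from limma. Filled symbols passed an adjusted p of 0.05. HD2A and HD2B are filled and below 0 in all 7 mutants, and HD2C is filled in rxt3 at 0.35.

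HD2C, the HDA6-binding member with roles in abscisic acid, cold and heat responses, rose in rxt3 to 128% of the wild-type mean. It stood at 1028 and 1015 in rxt3 and at 931 and 915 in hda19, against 860 and 741 in wild type. Its values were 716 and 650 in hda6, 760 and 813 in sant1234, 823 and 715 in mbd124, 715 and 753 in esant12 and 743 and 737 in arid14. The rxt3 and hda19 libraries lay above both wild-type libraries, the hda6 libraries lay below both, and the other 4 mutants overlapped wild type.

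For HD2C the log2 fold change in rxt3 was 0.35 with a standard error of 0.08 (limma adjusted p = 0.0024), where 22.3% of all tested genes were higher. It held in all 12 alternatives, with adjusted p of at most 0.042. In hda19 the difference was 0.21 (95% interval 0.04 to 0.38, adjusted p = 0.064) and in hda6 it was -0.23 (interval -0.40 to -0.05, adjusted p = 0.055). Without wild-type replicate 1 the hda19 difference passed (adjusted p = 0.023), and without wild-type replicate 2 the hda6 difference did (0.022). The intervals in sant1234 (-0.20 to 0.15), mbd124 (-0.23 to 0.11), esant12 (-0.29 to 0.05) and arid14 (-0.28 to 0.06) spanned 0. In each of these 4 mutants the HD2A estimate lies outside the HD2C interval, and so does the HD2B estimate except in esant12 (-0.27). The interval of HD2A itself overlaps that of HD2C in mbd124 (-0.57 to -0.19) and esant12 (-0.56 to -0.18). The intervals of HD2A and HD2C meet at -0.20 in sant1234 and are apart in arid14 (HD2A -0.72 to -0.34). The HD2B interval overlaps that of HD2C in esant12 (-0.41 to -0.13). It ends at -0.21 in sant1234, -0.23 in mbd124 and -0.28 in arid14. Differences between members within a mutant were not tested.

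HD2C also differed between mutants. Of 21 pairs of mutants, limma called it in 9, HD2A in 4, HD2D in 1 and HD2B in 0, and whether these counts differ was not tested. The share of all tested genes that differed in either direction was, for hda6, 23.9% against hda19, 8.23% against sant1234, 12.8% against mbd124, 20.6% against esant12, 24.9% against arid14 and 44% against rxt3. For hda19 the shares were 20.2% against sant1234, 20% against mbd124, 34.7% against esant12, 26.6% against arid14 and 31.5% against rxt3. For sant1234 they were 2.13% against mbd124, 21.3% against esant12, 17% against arid14 and 37.9% against rxt3. For mbd124 they were 16.2% against esant12, 15.8% against arid14 and 41.1% against rxt3, for esant12 30.5% against arid14 and 48.6% against rxt3, and for arid14 42.5% against rxt3. HD2B passed an unadjusted p of 0.05 in 3 of the 21 pairs and was called in 0 by edgeR and 0 by DESeq2. The mean of HD2C was 683 in hda6 and 923 in hda19, a log2 difference of -0.44 with a standard error of 0.08 (limma adjusted p = 0.0015) between the 2 mutants of RPD3-type deacetylases. The hda6, sant1234, mbd124, esant12 and arid14 means lay below that of rxt3 by log2 differences of -0.58 to -0.38, all called. HD2C in hda19 was also above mbd124 (0.27), esant12 (0.33) and arid14 (0.32). The hda19 and rxt3 means, 923 and 1021, did not pass (log2 difference -0.15, adjusted p = 0.18). Pairs of mutants were not recomputed without single libraries.

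The 4 called pairs of HD2A all involved rxt3. Its mean was 710 in hda19, 706 in sant1234, 707 in mbd124 and 712 in esant12, against 560 in rxt3, with log2 differences of 0.34 to 0.35 and limma adjusted p of 0.0041 to 0.008. In the order of HD2A means, esant12, the highest mutant, stood below wild type (adjusted p = 0.0064), and no 2 mutants next to each other in that order passed the test. For HD2B esant12 was also the highest mutant and below wild type (adjusted p = 0.0068), with no further step that passed. No step between neighbours passed for HD2C or HD2D.

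The balance between HD2C and HD2A also differed between genotypes. Per kb of exon, the log2 ratio of HD2C to HD2A was 0.83 and 1.06 in the rxt3 libraries and 0.47 and 0.43 in hda19, against -0.10 and -0.16 in wild type. It lay between 0.03 and 0.31 in the libraries of the other 5 mutants. On this scale HD2C was thus above HD2A in all 14 mutant libraries and below it in both wild-type libraries. Which of the 2 genes is higher depends on the lengths used. Before division by length, esant12 replicate 1 had 735 for HD2A and 715 for HD2C. The differences of the log2 ratio between genotypes do not depend on length. As a share of the summed HD2 level per kb, HD2C made up 25.6% ± 1.97 in rxt3, 22.3% ± 0.215 in hda19 and 16.4% ± 0.874 in wild type, while HD2A made up 13.3% ± 0.454 in rxt3 and 18% ± 0.48 in wild type (SD, n = 2). The log2 ratio of HD2B to HD2A was 1.93 and 1.98 in rxt3, against 1.59 and 1.71 in wild type. These ratios are a description and were not tested.

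**Figure D3:**
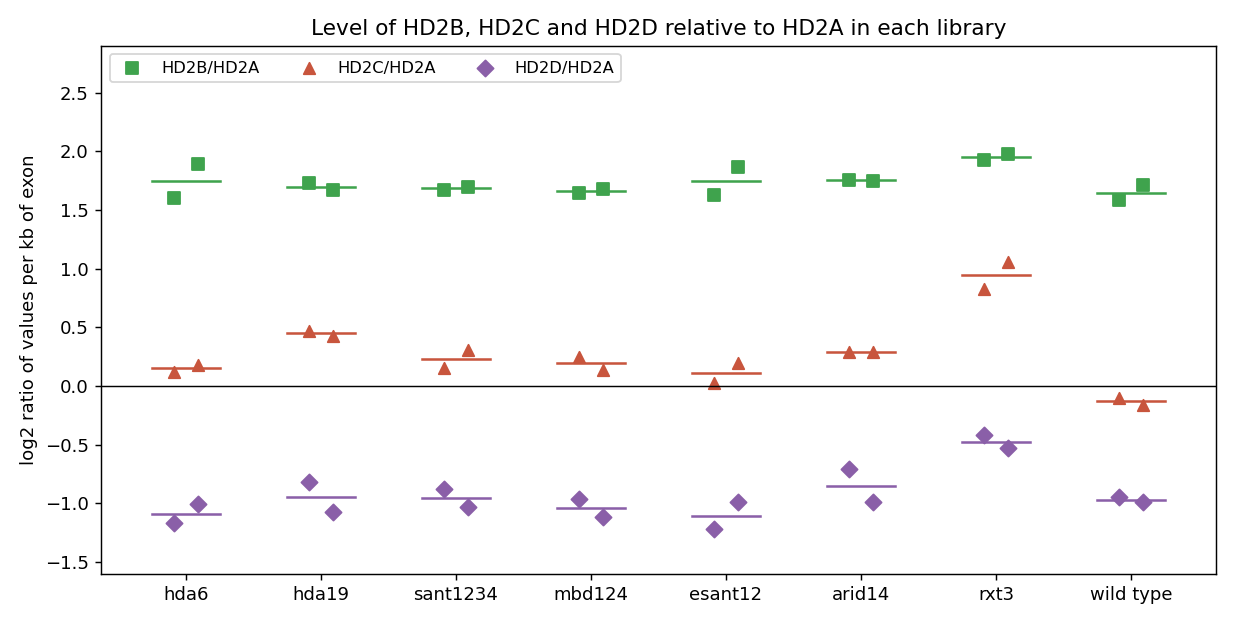
Log2 ratio of HD2B, HD2C and HD2D to HD2A, from values per kb of exon (y axis), in each library of 7 mutants and wild type, with a line at the mean of 2 libraries. HD2C/HD2A is above 0 in all 14 mutant libraries, reaching 0.83 and 1.06 in rxt3, and below 0 in both wild-type libraries. The side of 0 depends on the exon lengths used.

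HD2D, the least abundant and shortest member, fell in hda6, esant12 and arid14. Its deposited values were 281 and 273 in hda6, 288 and 316 in esant12 and 354 and 291 in arid14, against 459 and 400 in wild type. They were 364 and 310 in hda19, 357 and 308 in sant1234, 342 and 287 in mbd124 and 413 and 324 in rxt3. One rxt3 library lay within the wild-type range and the other 13 mutant libraries lay below it. The log2 fold change was -0.63 in hda6 (limma adjusted p = 0.0049), -0.50 in esant12 (0.016) and -0.42 in arid14 (0.033), with a standard error of 0.14, more than that of the other members. In hda19 it was -0.35 (95% interval -0.65 to -0.05, adjusted p = 0.071) and in sant1234 -0.37 (-0.67 to -0.07, 0.075). In mbd124 it was -0.45 (-0.75 to -0.15, 0.054) and in rxt3 -0.23 (interval -0.53 to 0.07). With a replicate block in the fit, limma adjusted p was 0.019 in hda19, 0.02 in sant1234 and 0.012 in mbd124.

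The 3 HD2D calls each depended on single libraries. Without wild-type replicate 1, limma adjusted p was 0.054 in hda6, 0.12 in esant12 and 0.21 in arid14, and it was 0.062 in hda6 without hda6 replicate 2, 0.11 in esant12 without esant12 replicate 1 and 0.25 in arid14 without arid14 replicate 2. Between mutants, HD2D averaged 277 in hda6 and 368 in rxt3 (log2 difference -0.40, limma adjusted p = 0.031). An F test over the 8 genotypes passed for all 4 members (limma adjusted p = 0.00036 for HD2A, 0.00075 for HD2B, 0.00035 for HD2C and 0.027 for HD2D), as it did for 71.8% of all tested genes. HD2D missed the threshold of that test without hda6 replicate 1 (0.092), hda6 replicate 2 (0.1) or wild-type replicate 1 (0.14), and with no filter on low values (0.053).

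Across the 16 libraries, log2 values of HD2A and HD2B had a Pearson correlation of 0.84, and HD2B and HD2D of 0.69. HD2C had correlations of -0.19 with HD2A, -0.01 with HD2B and 0.52 with HD2D. These describe 8 genotypes of 2 libraries each, which share their normalisation. The tested genes most like HD2B were AT3G05060 (r = 0.96), a NOP56-like protein of pre-RNA processing listed here as NOP58-2, NRPA1 (0.94), the largest subunit of RNA polymerase I, and AT3G57940 (0.94), a GNAT acetyltransferase. Those most like HD2A were DHS2 (0.94), an enzyme at the entry to aromatic amino acid synthesis, AT1G06720 (0.92), annotated as a P-loop nucleoside triphosphate hydrolase, and AT2G36835 (0.92), which is uncharacterised.

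For HD2C the most similar were the peroxidase AT4G11290, the auxin synthesis gene TAA1 and AT3G22550, each at r = 0.94, over the same 16 libraries. For HD2D they were the spermidine synthase SPDS1 (0.89), the starch phosphorylating enzyme PWD (0.85) and the glycosyltransferase UGT84A2 (0.84). The most opposed genes were GGT1 for HD2A (r = -0.90), GGP3 for HD2B (-0.88), ORP4C for HD2C (-0.94) and AT3G06780 for HD2D (-0.89). Of the 100 genes most like each member, 11 for HD2B, 3 for HD2A, 2 for HD2D and 0 for HD2C were in a list of 34 nucleolar and ribosome biogenesis genes, which is 0.163% of the genes tested.

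That list was drawn up because HD2 proteins reside in the nucleolus. In rxt3 29 of its 34 genes fell, in hda6, hda19 and arid14 24 each, in sant1234 21, in mbd124 20 and in esant12 10. As shares these were 85.3% in rxt3, 70.6% in hda6, hda19 and arid14, 61.8% in sant1234, 58.8% in mbd124 and 29.4% in esant12, beside 5.27% to 24.9% of all tested genes. The median log2 fold change of the list was -0.47 in rxt3, -0.41 in arid14, -0.35 in hda6 and hda19, -0.33 in mbd124, -0.32 in sant1234 and -0.19 in esant12, while that of all tested genes lay between -0.02 and 0.01. Its summed value was 27770 and 29775 in rxt3, 37775 and 37809 in esant12 and between 32661 and 34174 in the other mutants, against 41371 and 41902 in wild type. Of the 34, 9 genes (26.5%) were lower in all 7 mutants, beside 1.94% of all tested genes. Without hda6 replicate 2 the lower genes in hda6 numbered 13, without wild-type replicate 1 those in sant1234 13, those in mbd124 9 and those in esant12 4, without mbd124 replicate 2 those in mbd124 10, and without esant12 replicate 1 or 2 those in esant12 5 or 6. When only mbd124 and wild type were fitted, 2 were lower. The number of all tested genes called lower was also smaller in each of these settings. In esant12 without wild-type replicate 1, the share of the list called lower was near that of all tested genes.

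Fibrillarin FIB1, a ribosomal RNA methyltransferase, averaged 3145 in rxt3 and 3351 in hda6, against 5078 in wild type (log2 fold change -0.69 and -0.60, limma adjusted p = 1e-07 and 8.4e-07). In esant12 it was at 4841 (-0.07, adjusted p = 0.30), and it fell in the other 4 mutants. NOP58-2, the core protein of small nucleolar particles whose pattern was most like HD2B, stood at 945 and 987 in hda6, 1008 and 1087 in esant12 and 1029 and 903 in rxt3, against 1317 and 1298 in wild type. It fell in all 7 mutants, as did CBF5, the pseudouridine synthase of such particles, RRP5 and RID2. The call in esant12 was lost for NOP58-2 without esant12 replicate 1 (limma adjusted p = 0.058), for CBF5 and RRP5 without any single esant12 or wild-type library (0.052 to 0.27), and for RID2 without esant12 replicate 2 or wild-type replicate 1. RID2 also missed it in sant1234 without sant1234 replicate 1 or wild-type replicate 1, and in mbd124 without any single mbd124 or wild-type library. The nucleolins went apart: NUC1 fell in 6 mutants, to 3384 in rxt3 against 5222 in wild type, while NUC2, a rarer copy, rose to 54.3 in sant1234 and 40.7 in hda19 against 17.4 in wild type (log2 fold change 1.59 and 1.21, limma adjusted p = 0.003 and 0.0099). The NUC1 call was lost in sant1234 without sant1234 replicate 2 (0.064), in mbd124 without mbd124 replicate 2 (0.085) or wild-type replicate 1 (0.056), and in arid14 without arid14 replicate 2 (0.052). That of NUC2 in hda19 was lost without hda19 replicate 2 (0.082) or wild-type replicate 1 (0.11), with DESeq2 (0.055) and when only hda19 and wild type were fitted (0.072), and that in sant1234 when only sant1234 and wild type were fitted (0.058).

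**Figure D4:**
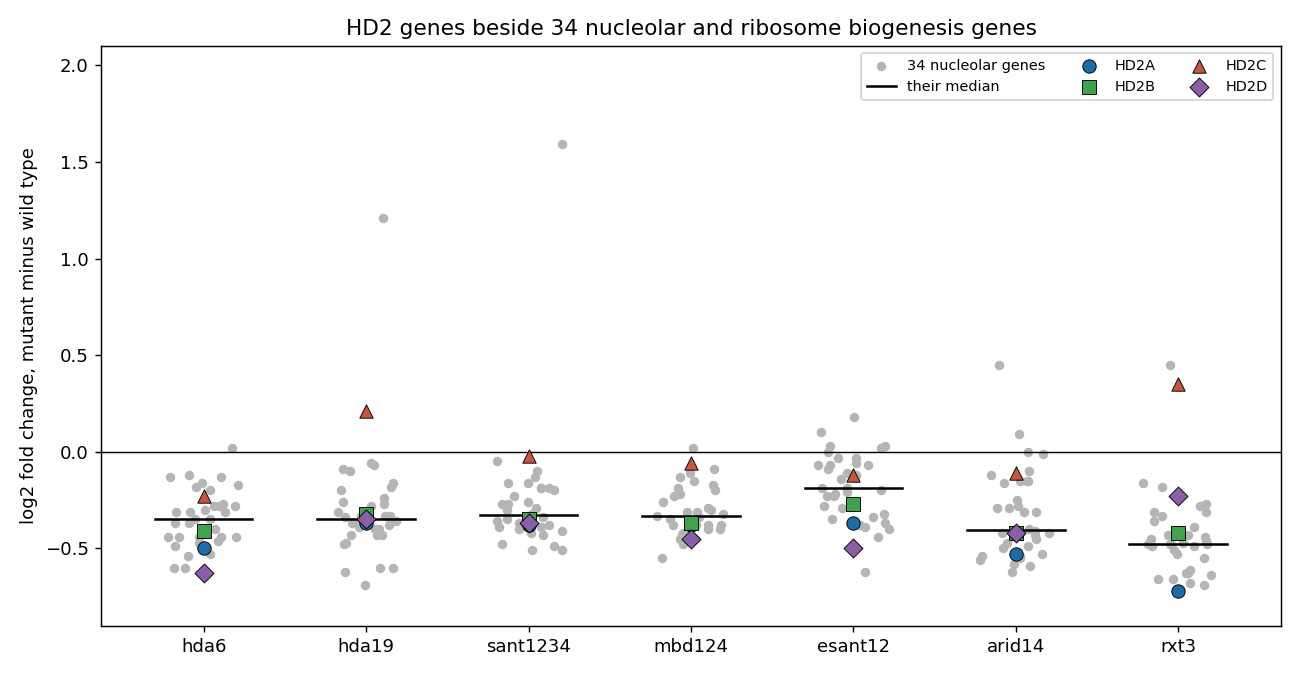
Log2 fold change, mutant minus wild type (y axis), of 34 nucleolar and ribosome biogenesis genes (grey, spread sideways for display, with a line at their median) and of the 4 HD2 genes, in 7 mutants. The 34 genes have medians of -0.19 in esant12 to -0.47 in rxt3, with NUC2 the high point in hda19 and sant1234, and HD2C lies above the median in each mutant.

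Genes of ribosomal proteins were taken as the nuclear genes whose annotated product contains the words "ribosomal protein". The match was by words only, so the list was not limited to proteins of the cytosolic ribosome. Of 344 such genes 314 were tested, and the number called lower varied by mutant. In rxt3 206 of them were lower and 10 higher, in hda19 158 and 7, in arid14 115 and 7, in mbd124 106 and 2, in sant1234 66 and 5, in hda6 40 and 11, and in esant12 27 and 52. Their lower share was 65.6% in rxt3, 50.3% in hda19, 36.6% in arid14, 33.8% in mbd124 and 21% in sant1234. Beside these stood 24.9%, 16.2%, 17.2%, 5.27% and 11.3% of all tested genes, in that order. In hda6 it was 12.7% and in esant12 8.6%, beside 12.5% and 14.3% of all tested genes. Leaving out either mutant library or either wild-type library lowered these counts by more than 1.5 times in hda6 (11 to 21 lower), sant1234 (17 to 35), mbd124 (33 to 49) and esant12 (11 to 16 lower, 27 to 29 higher). In hda19 89 were lower without hda19 replicate 2 and in arid14 73 without wild-type replicate 1. The part of the nucleolar and ribosomal protein genes in the HD2 values was not tested.

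**Figure D5:**
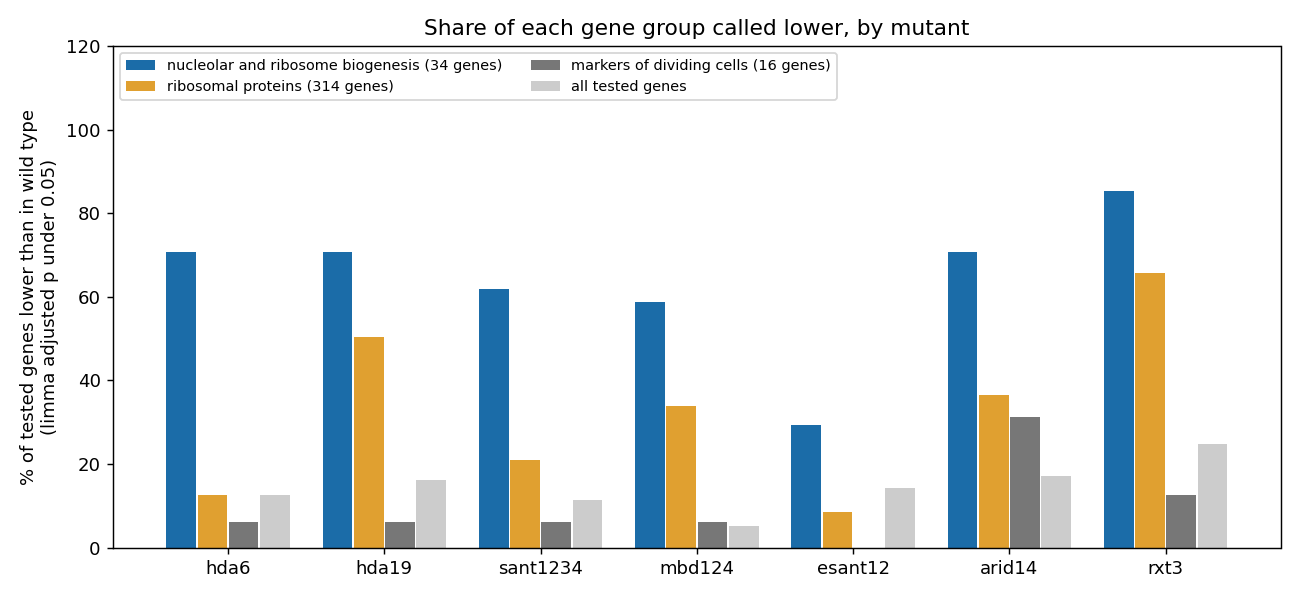
Share of tested genes called lower than in wild type by limma (y axis, percent) in each mutant, for nucleolar, ribosomal protein and dividing-cell lists and for all tested genes. The nucleolar bar is the highest in each mutant, from 29.4% in esant12 to 85.3% in rxt3. The esant12 nucleolar share was smaller without wild-type replicate 1 or either esant12 library.

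Cell type markers were read beside these results. By mutant, 5.27% to 24.9% of all tested genes were lower and 4.73% to 22.3% higher. For dividing cells the lower share was 31.2% in arid14, 12.5% in rxt3 and at most 6.25% elsewhere, and the higher share at most 18.8%. Of 16 markers of dividing cells, all tested, 5 fell in arid14 (2 without wild-type replicate 1, 3 without either arid14 library), 2 in rxt3 and 1 each in hda6, hda19, sant1234 and mbd124, while 3 rose in rxt3, 2 in esant12 and 1 each in sant1234 and arid14. In rxt3 the falling ones numbered 0 without either rxt3 library or wild-type replicate 1 and 1 without wild-type replicate 2, and the rising ones 0 without rxt3 replicate 1 or wild-type replicate 2 and 5 without rxt3 replicate 2. In esant12 1 rose without either esant12 library or wild-type replicate 2. Their summed value was 3672 to 4268 in rxt3 and 3179 to 3347 in arid14, against 3646 to 4267 in wild type. Of 12 root markers 5 rose and 2 fell in rxt3 (41.7% and 16.7%, beside 22.3% and 24.9% of all tested genes). Their sum there was 3151 to 3246 against 2801 to 3009 in wild type. Of 9 markers of green tissue 3 to 6 rose (33.3% to 66.7%) and 1 to 2 fell (11.1% to 22.2%) in each mutant. The rising ones numbered 6 in sant1234 (2 or 3 when any single sant1234 or wild-type library was left out) and 5 in mbd124 (3 without mbd124 replicate 1 or wild-type replicate 2). The sum of the 9 markers was 733381 to 870996 in the mutant libraries, against 661164 to 690556 in wild type. The green tissue sum was thus higher in the 7 mutants in which HD2A and HD2B were lower, but its markers went apart. LHCB1.3, of the light-harvesting complex, was called higher in all 7 mutants (0.41 to 0.79 on the log2 scale). RBCS1B, of Rubisco, was called lower in all 7 (-0.90 to -0.31). The sum follows its most abundant transcripts and does not measure the amount of green tissue. Its part in the HD2 values was not tested.

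Of 6 genes of proteins reported to bind or modify HD2 proteins, at most 2 fell and at most 2 rose in any mutant. List medians were -0.24 to 0.02 on the log2 scale. At most 33.3% were lower and at most 33.3% higher, beside 5.27% to 24.9% and 4.73% to 22.3% of all tested genes. FKBP53, a nucleolar histone chaperone that binds HD2B, fell in 6 mutants. It averaged 468 in arid14 and 503 in hda6, against 705 in wild type (log2 fold change -0.59 and -0.49, limma adjusted p = 0.00037 and 0.0026), and 618 in esant12 (-0.19, adjusted p = 0.18). MPK3, the kinase that phosphorylates HD2B, rose in 6 mutants, to 3096 in rxt3 and 2660 in hda6 against 1777 in wild type (0.81 and 0.59), and was at 2003 in arid14 (0.18, adjusted p = 0.23). AS1 fell in sant1234 (-0.45), mbd124 (-0.37) and arid14 (-0.69). BRM, the SWI/SNF ATPase that binds HD2C, fell in rxt3 (-0.32) and rose in esant12 (0.17). The FKBP53 call was lost in hda6 without hda6 replicate 2 (limma adjusted p = 0.056), in hda19 without hda19 replicate 1 (0.05), in sant1234 without sant1234 replicate 1 or either wild-type library (0.057 to 0.12) and in mbd124 without any single mbd124 or wild-type library (0.072 to 0.23). That of MPK3 was lost in sant1234 without either sant1234 library or wild-type replicate 1 (0.051 to 0.11), in mbd124 without mbd124 replicate 1 (0.062) or wild-type replicate 1 (0.095) and in esant12 without esant12 replicate 1 (0.29) or wild-type replicate 1 (0.34). When only the mutant and wild type were fitted, MPK3 missed the threshold in hda19 (0.079), sant1234 (0.055), mbd124 (0.09) and esant12 (0.15). AS1 in mbd124 was lost without mbd124 replicate 2 (0.12) or wild-type replicate 1 (0.1), and BRM in esant12 without esant12 replicate 1 (0.2) or wild-type replicate 1 (0.19). AS2 lay at -0.56 to 0.09 and DNMT2, an RNA methyltransferase that binds HD2 proteins, at -0.07 to 0.26 without passing the test.

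Of 8 genes reported to be bound or held down by an HD2 protein, 1 to 3 fell in each mutant and at most 3 rose. List medians were -0.31 to 0.09 on the log2 scale. By mutant, 12.5% to 37.5% were lower and at most 37.5% higher, beside 5.27% to 24.9% and 4.73% to 22.3% of all tested genes. ERF4, an ethylene response repressor, rose in 6 mutants, to 2207 in hda6 and 2094 in rxt3 against 864 in wild type (log2 fold change 1.36 and 1.28), and was at 786 in arid14 (-0.12, limma adjusted p = 0.46). HSP101, the heat-induced disaggregase, fell in 6 mutants, with log2 fold changes of -0.71 to -0.47, and was at -0.26 in rxt3 (adjusted p = 0.12). GA2OX2, which inactivates gibberellins and is known as a target of HD2A and HD2B, rose in hda19 (1.34, adjusted p = 0.00025) and rxt3 (0.73, adjusted p = 0.008). The abscisic acid phosphatase ABI2 fell in hda6 (-0.34), sant1234 (-0.51), arid14 (-0.66) and rxt3 (-0.82), and ABI1 fell in arid14 (-0.49). The cold gene COR15A fell in hda6 (-1.52), hda19 (-1.62) and esant12 (-1.53), COR47 fell in esant12 (-0.41), and the heat factor HSFA3 rose in hda6, hda19, sant1234 and rxt3 (0.65 to 0.86). The COR15A calls were each lost without either library of the mutant or without wild-type replicate 1 (limma adjusted p = 0.089 to 0.3), and COR47 without esant12 replicate 2 (0.068) or wild-type replicate 2 (0.14). The HSFA3 calls were each lost without either wild-type library, and also without either hda6 library, either hda19 library, sant1234 replicate 1 or rxt3 replicate 2. HSP101 was lost in hda6 without hda6 replicate 2 or either wild-type library (0.056 to 0.17), in hda19 without wild-type replicate 2 (0.05), and in mbd124 and esant12 without any single library of the mutant or wild type (0.05 to 0.12). GA2OX2 in rxt3 was lost without rxt3 replicate 2 (0.079) or wild-type replicate 2 (0.053), ABI2 in hda6 without either hda6 library or wild-type replicate 2 (0.093 to 0.29), and ABI2 in sant1234 without wild-type replicate 2 (0.062).

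Of 14 genes of the other deacetylase families 11 were tested, of which at most 3 fell and at most 3 rose in any mutant. Their medians were -0.24 to 0.03 on the log2 scale. At most 27.3% were lower and at most 27.3% higher, beside 5.27% to 24.9% and 4.73% to 22.3% of all tested genes. HDA14, a deacetylase of the RPD3/HDA1 type, fell in 6 mutants, to 454 in hda19 and 464 in rxt3 against 660 in wild type (-0.54 and -0.51). HDA9, which acts in flowering time and seedling growth, fell in hda6 (-0.29), sant1234 (-0.34), esant12 (-0.30) and rxt3 (-0.43). HDA6 itself rose in esant12 (0.31, limma adjusted p = 0.013) and HDA8 rose in hda6 (0.32) and esant12 (0.43). Both sirtuins, SRT1 (-0.67) and SRT2 (-0.44), fell in arid14. HDA14 kept its 6 calls in each alternative and HDA9 that in rxt3, whereas HDA9 was lost in hda6 without either hda6 library or wild-type replicate 1, in sant1234 without sant1234 replicate 2 or wild-type replicate 1, and in esant12 without esant12 replicate 1 or wild-type replicate 1 (limma adjusted p = 0.064 to 0.15). HDA6 in esant12 was lost without esant12 replicate 1 or either wild-type library (0.053 to 0.089), and HDA8 in hda6 without any single hda6 or wild-type library (0.065 to 0.16). SRT1 was lost without arid14 replicate 1 (0.051) or wild-type replicate 1 (0.057), and SRT2 without arid14 replicate 2 (0.079) or wild-type replicate 2 (0.16). Of 12 histone acetyltransferase genes, 6 fell in rxt3, among them HAC1 (-0.42) and HAC12 (-0.35), where 24.9% of all tested genes did, and 4 rose in esant12, among them HAM2 (0.34) and HAC1 (0.21), where 11.5% of all tested genes did. Without esant12 replicate 2 the number that rose there was 1, with HAC1 and HAM2 lost, and without wild-type replicate 1 it was 2, with HAC1 lost. HAM2 was also lost without wild-type replicate 2 (limma adjusted p = 0.082).

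The bases before the gene start were read because HD2C, unlike HD2A and HD2B, was not called lower in any mutant. Whether its change differs from theirs within a mutant was not tested, nor was any part of these bases in it. HD2C and HD2D are shown, whose windows of 250 bases overlap no other gene, from RefSeq's TAIR10.1 on the forward strand, chr5:981609-981858 for HD2C and chr2:11861556-11861805 for HD2D. Capitals mark site II elements (TGGGCC or TGGGCT, on either strand), a promoter motif known from ribosomal protein and cell proliferation genes.
HD2C: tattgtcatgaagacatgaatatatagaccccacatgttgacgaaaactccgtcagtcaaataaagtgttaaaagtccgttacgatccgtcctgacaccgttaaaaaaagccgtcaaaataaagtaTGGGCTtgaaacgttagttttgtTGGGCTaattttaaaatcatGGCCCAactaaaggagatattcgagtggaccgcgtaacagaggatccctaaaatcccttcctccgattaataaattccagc
HD2D: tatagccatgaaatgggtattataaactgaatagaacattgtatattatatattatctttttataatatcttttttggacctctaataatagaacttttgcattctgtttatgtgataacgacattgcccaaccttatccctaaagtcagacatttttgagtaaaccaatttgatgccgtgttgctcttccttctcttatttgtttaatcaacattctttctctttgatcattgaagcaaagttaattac
HD2C held 3 matches, TGGGCT ending 119 and 96 bases before the gene start and TGGGCC on the opposite strand 76 bases before it. No match lay in the window of HD2A, HD2B or HD2D. Of 27443 windows of protein-coding genes, 19.2% held at least 1 match and 4.73% held 3 or more, and 20 of the 34 nucleolar genes (58.8%) held at least 1. The telo box AAACCCTA was in 4.49% of all windows and in none of the 4 HD2 windows. The windows of HD2A and HD2B overlap the neighbouring genes AT3G44740 and AT5G22640. A match is a string of letters and does not show binding.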

How the data were processed

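RNA from 8 genotypes with 2 libraries each was sequenced as single-end reads of 50 bp. Per the submitters' processing notes, the tools were HISAT2 2.1.0, featureCounts and edgeR, with TAIR10; options, annotation release and strand setting are not given in the sources used here. The authors deposited 1 normalised signal value per gene and library, which is not a whole number. All values (100% within a relative tolerance of 1e-06) came back from whole reads with edgeR's library-size adjustment at a common dispersion of 0.0034, and no column was left unused (0). In all, 5616 of 32548 genes had no read. Such values do not keep total RNA per plant.

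Differences were tested with limma 3.58.1 (R 4.3.3) with a trend, on log2 of the deposited value plus 1, in 1 fit of 16 libraries (8 residual and 6.06 prior degrees of freedom) over the 20846 genes that reached 10 in 2 or more libraries. Calls were made at an adjusted p under 0.05 (Benjamini-Hochberg over all genes tested). Folds are on the log2(value + 1) scale. As an alternative, the count test of edgeR 4.0.16 on the recovered reads called 1050 genes higher and 1093 lower in mbd124 and 5082 higher and 4713 lower in rxt3, the fewest and the most of the 7 mutants. Other alternatives were DESeq2 1.42.0, a pseudocount of 0.1, no filter, a mean of at least 50, median-of-ratios factors, a replicate block, a fit of 2 genotypes and leaving out each library. The procedure was tested on simulated data.

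The HD2 members, the 9 gene lists and the tests were chosen with earlier results of these data known. The text names the 4 members, the 3 genes most like each and the 1 least like it, and, from each list, a selection of the 3 called genes per mutant and direction with the largest changes and a mean of at least 100. NUC1, NUC2, CBF5, AS2, DNMT2, GA2OX2 and HSFA3 lie outside that rule and were named after their values were seen, and the genes a mutant is named for are given as a check of the labels. Exon lengths and sequences come from RefSeq's TAIR10.1, in which all 4 loci were found.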

Additional observations from a re-analysis of the deposited data

How the results depend on the processing

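Each of the 28 member-by-mutant results was recomputed under 12 alternatives, 336 values in all, of which 303 kept direction and side of the threshold, 19 lost the call, 10 gained one and 4 turned direction. The 4 were HD2C results not called in any of them: in sant1234 0.03 without sant1234 replicate 1 and 0.08 without wild-type replicate 1 (range without 1 library -0.13 to 0.08), and in mbd124 0.04 without mbd124 replicate 2 and 0.05 without wild-type replicate 1 (range -0.16 to 0.05). Leaving out 1 library, the number of members called was 2 to 4 in hda6, 2 in each case in hda19, 1 to 2 in sant1234, 1 to 2 in mbd124, 0 to 3 in esant12 (0 without wild-type replicate 1), 2 to 3 in arid14, 3 in each case in rxt3, and 3 to 4 in the F test (HD2D lost). These counts mix both directions, and the hda19 count hides a change of members. Without wild-type replicate 1, HD2A in hda19 (log2 fold change -0.29) was no longer called and HD2C (0.32) was called higher. In a fit of mbd124 and wild type alone 0 members were called, where 0.556% of all genes were. The limma adjusted p was 0.086 for HD2A and 0.055 for HD2B. The nucleolar genes lower in mbd124 then numbered 2 in place of 20, and that fit has fewer samples. Over all tested genes, libraries of the same number did not deviate together (correlations -0.09 to 0.12 over 28 pairs of genotypes, 3 over 0.1). Such a correlation cannot decide this for single genes. Replicate 1 was the higher in 7 of 8 genotypes for HD2A and HD2D and in 6 for HD2B and HD2C. Whether same-numbered libraries share a batch is not stated and was not tested. With a replicate block, HD2C in hda6 passed (-0.23, limma adjusted p = 0.044). HD2D then passed in hda19 (-0.35, 0.019), sant1234 (-0.37, 0.02) and mbd124 (-0.45, 0.012). That gave 4 called members in hda6 and 3 in each other mutant. HD2D in arid14 missed the threshold with no filter (0.057) and when only arid14 and wild type were fitted (0.089). With edgeR HD2C in hda19 (0.047) and HD2D in mbd124 (0.044) passed, the second also with a mean of at least 50 (0.042) and with median-of-ratios factors (0.049). The nucleolar genes called lower numbered 13 to 25 in hda6, 19 to 24 in hda19, 13 to 23 in sant1234, 4 to 11 in esant12, 16 to 24 in arid14 and 25 to 31 in rxt3 over the alternatives. Of 1512 recomputed list counts, 319 moved by over 1.5 times. Of 110 calls of 29 other named genes, 48 were lost without at least 1 single library, 37 in a fit of 2 genotypes, 26 with DESeq2, 9 with no filter and at most 2 in each other alternative. The green tissue markers were not among these 29 genes. The cause of these shifts was not tested. With 2 libraries a genotype, small differences are often not detectable at this design, and HD2D, with the fewest reads, has the largest standard error.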
